A study of Mus musculus with 24 samples.

Results

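Ebf1, Pax5, Pou2af1, Cd79a, Cd79b, Cr2 and Fcrla, 7 genes that mark the B lymphocyte lineage in mouse, were examined for accessible chromatin in blood neutrophil (NEU) libraries, against blood monocytes (MON) and marrow progenitors. These 7 genes of 21951 protein-coding genes were picked by name because earlier results of the same data had shown their regions as accessible in NEU, so every NEU value below describes them and none is a test. The assay was ATAC-seq, where a transposase inserts adapters into accessible DNA, and each of 24 libraries, 2 from each of 12 mouse hematopoietic cell types, has its own list of called peaks. The 10 primary types came from adult C57BL6 mice, which the study's methods give as young males. NEU and MON came from peripheral blood. The other primary types came from bone marrow. Of these, LSK (lineage negative cells with Sca1 and cKit) hold the stem cells, and CMP, GMP and MEP are the common myeloid, granulocyte-macrophage and megakaryocyte-erythroid progenitors. CFUMK and iMK are megakaryocyte precursors and immature megakaryocytes, and CFUE and ERY are erythroid precursors and erythroblasts. G1E-ER4+E2 is a single clone of G1E in which an estradiol-dependent GATA1 and estrogen receptor hybrid restores GATA1. As +E2 in the label gives, these cells were treated with estradiol, which activates the hybrid. G1E, a line of erythroid precursors, has no GATA1. Per the study's supplement, the NEU cells were not sorted, the MON cells were gated as Ly6g negative and CD11b positive, and the marrow cells were depleted of lineage-positive cells, among them those with the B cell antigen CD45R.

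B cells arise when EBF1 and PAX5, 2 transcription factors, switch on the B cell program and close off other fates. POU2AF1 is a coactivator that works with octamer-binding factors. CD79A and CD79B are the signalling chains of the B cell receptor, CR2 is a complement receptor that acts as a B cell co-receptor, and FCRLA is an Fc receptor-like protein of B cells. Neutrophils and monocytes are myeloid cells, which belong to another branch of the blood lineages.

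An element is a peak found in both libraries of a type (overlap of 1 bp or more), merged over the 12 types. The series has 207525 elements, of which 43445 were called in NEU. Each gene was given its body and 20 kb on each side (GENCODE vM21, mm10), and these windows hold 138 elements. NEU calls stand in 62 of them, and 24 of the 62 were called in NEU and in no other type.

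NEU replicate 2 stood apart from the other primary libraries. In it the second of the authors' 2 peak scores was 0.39 per step of the first at the median, against 0.92 in NEU replicate 1 and 0.79 to 1.00 in the other primary libraries. Of its peaks, 75.7% overlapped a peak of NEU replicate 1, and 53.7% of those of NEU replicate 1 overlapped one of its own. The counts of NEU elements over the 7 windows together and the NEU minus MON differences below are therefore also given without it, while element counts of single genes need a peak in both NEU libraries.

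The sequences below are those of places where NEU stood apart: the 200 bases before the outermost transcript start of 3 genes, and 200 bases about the centre of 5 elements called in NEU alone. Capitals mark letters that match one of 8 motifs searched on both strands. All are written along the strand of the gene and come from RefSeq's GRCm38.p6, the same build as mm10. No base of them lies in an annotated exon.
Cd79a upstream, chr7:24897181-24897380, plus strand: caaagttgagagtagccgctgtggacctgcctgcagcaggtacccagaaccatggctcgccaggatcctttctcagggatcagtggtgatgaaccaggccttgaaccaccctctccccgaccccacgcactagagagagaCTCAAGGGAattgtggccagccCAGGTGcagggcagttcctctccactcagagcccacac
Fcrla upstream, chr1:170927584-170927783, minus strand: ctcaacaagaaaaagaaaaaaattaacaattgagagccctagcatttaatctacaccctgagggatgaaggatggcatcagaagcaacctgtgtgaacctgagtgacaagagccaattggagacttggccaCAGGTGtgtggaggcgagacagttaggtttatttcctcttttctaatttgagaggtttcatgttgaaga
Pou2af1 upstream, chr9:51213508-51213707, plus strand: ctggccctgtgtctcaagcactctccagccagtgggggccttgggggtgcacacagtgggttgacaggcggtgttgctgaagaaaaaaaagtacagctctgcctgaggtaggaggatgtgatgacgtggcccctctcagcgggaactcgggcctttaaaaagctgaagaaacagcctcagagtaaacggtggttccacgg
Pax5 element before the outermost start, chr4:44710712-44710911, minus strand: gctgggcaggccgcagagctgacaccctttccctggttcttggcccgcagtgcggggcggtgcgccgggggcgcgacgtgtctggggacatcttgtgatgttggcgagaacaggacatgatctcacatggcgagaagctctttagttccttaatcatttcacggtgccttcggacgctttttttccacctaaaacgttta
Pax5 intronic element, chr4:44667417-44667616, minus strand: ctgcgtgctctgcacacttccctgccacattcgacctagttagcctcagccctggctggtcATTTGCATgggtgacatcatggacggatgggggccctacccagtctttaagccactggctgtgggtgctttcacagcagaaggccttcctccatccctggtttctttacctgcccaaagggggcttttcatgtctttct
Ebf1 intronic element, chr11:44775625-44775824, plus strand: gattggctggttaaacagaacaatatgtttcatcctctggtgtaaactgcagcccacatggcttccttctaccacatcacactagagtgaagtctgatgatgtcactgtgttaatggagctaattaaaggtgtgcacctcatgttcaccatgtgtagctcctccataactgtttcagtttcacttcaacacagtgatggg
Cd79b upstream element, chr11:106324937-106325136, minus strand: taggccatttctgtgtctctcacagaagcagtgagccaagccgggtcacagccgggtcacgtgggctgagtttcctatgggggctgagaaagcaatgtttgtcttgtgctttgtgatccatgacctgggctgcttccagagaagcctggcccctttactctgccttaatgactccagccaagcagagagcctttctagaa
Cr2 upstream element, chr1:195184810-195185009, minus strand: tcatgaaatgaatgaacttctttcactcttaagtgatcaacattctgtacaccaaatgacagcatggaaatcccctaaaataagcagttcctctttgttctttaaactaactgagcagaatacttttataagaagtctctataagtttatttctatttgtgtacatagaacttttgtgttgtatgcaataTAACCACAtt

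The motifs searched were EBF, a relaxed EBF form added after the first had been searched (CNCNNGGGA, which overlaps the first form), the octamer (ATGCAAAT), PU.1 (GAGGAAGT), RUNX (TGTGGTTA), an ETS-IRF composite, the E-box bound by E2A (CACCTG) and C/EBP (TTGCNNAAT). The Cd79a stretch holds a relaxed EBF match and an E-box. The Fcrla stretch holds an E-box. The Pax5 intronic element holds an octamer, read as ATTTGCAT on this strand, and the Cr2 element holds a RUNX match near its far end. The other 4 stretches hold no match to these letters. Among 200-base stretches before all protein-coding genes, 14.0% hold the E-box and 17.7% the relaxed EBF form. Among 200-base windows about all elements of the series, 1.07% hold the octamer and 1.79% the RUNX letters. A match is a description of letters and does not show that a factor was bound.

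A promoter counted as called with a peak 500 bp or less from an annotated transcript start. All 7 genes had a called promoter in both NEU libraries, a state shared by 51.4% of all protein-coding genes. Fewer of the 7 were called in every other library. MON replicate 1 had 5 of the 7 promoters and MON replicate 2 had 4. LSK and CMP libraries had 4 each, GMP and iMK libraries 5 each, CFUMK libraries 5 and 4, and MEP libraries 2 and 4. ERY and CFUE libraries had 2 each, those of Ebf1 and Cr2, and each library of the lines had that of Ebf1 alone. Both NEU libraries with no MON library was the pattern of 2 of the 7 genes, Pax5 and Cd79a, against 1.11% of all protein-coding genes. A wider or narrower promoter changed this for Pax5 and Fcrla: within 1 kb Pax5 was called in both MON libraries, and within 250 bp Pax5 was called in 1 NEU library while Fcrla was called in both NEU libraries and no other.

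**Figure D1:**
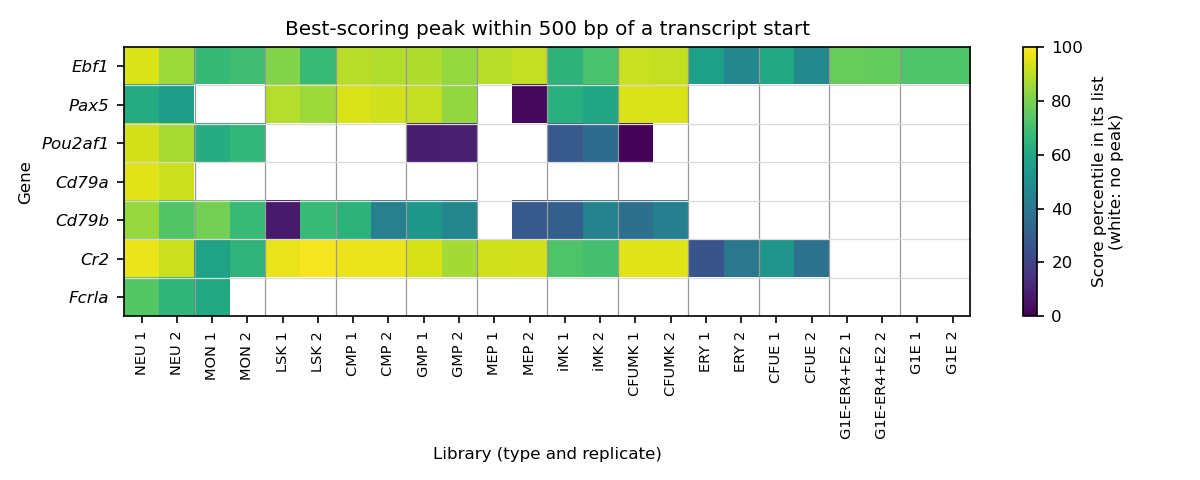
Score percentile of the best peak within 500 bp of a transcript start, for the 7 genes (rows) in 24 libraries (columns, type and replicate). Colour gives the share of the library's own peaks with a score at or below that of the peak, and white means no peak. Cd79a is filled in the NEU libraries only, and Ebf1 in all 24.

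Cd79a, the alpha signalling chain of the B cell receptor (chr7:24897381-24902197, plus strand, 1 annotated start), had the narrowest pattern. Its promoter was called in both NEU libraries and in 0 of the other 22, a pattern seen at 10 protein-coding genes, 0.0456% of all. The peak ranked high: its score lay at percentile 95.3 of the peaks of NEU replicate 1 and at percentile 92.4 in NEU replicate 2. The element spans chr7:24897145-24897443, 299 bp that include the start. The promoter call held within 250 bp, within 1 kb and among the 50000 highest-scoring peaks of each library.

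The rest of the Cd79a window was shared by most types. It had 10 and 11 peaks in the NEU libraries, against 8 and 7 in the MON libraries. Of its 7 NEU elements, 5 were also called in MON, and 4 of the 7 lie within 500 bp of a start of the neighbours Rps19, a ribosomal protein gene, or Arhgef1. At the 5 shared elements the mean percentile in NEU minus that in MON was between -6.46 and 0.86 points. Per 100000 called peaks the window had 9.20 and 13.04 in NEU, against 4.88 and 5.36 in MON, but the G1E lines also reached 9.96 to 13.3, so the count of peaks in this window did not set NEU apart.

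Fcrla (chr1:170917576-170927583, minus strand) came next. Its promoter element, chr1:170927561-170927746, was called in NEU alone, at percentiles 73.5 and 65.5 in the NEU libraries. In the other 22 libraries a promoter peak was called once, in MON replicate 1 at percentile 60.7. An element at -1083 bp from the start was called in NEU and MON and no other type, at percentiles 89.97 and 85.4 in NEU, against 69.8 and 55.9 in MON. The window as a whole had 12 and 13 peaks in NEU, against 17 and 10 in MON, so these counts overlapped. Per 100000 called peaks it had 11.04 and 15.4 in NEU, against 10.4 and 7.66 in MON and 13.3 and 8.62 in G1E. Its 4 elements called in MON and not in NEU lie up to 20 kb outside the gene body and were shared with CMP, GMP, iMK or CFUMK.

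Cd79b, the beta signalling chain (chr11:106311341-106314762, minus strand), had a promoter called in 15 libraries, among them all of NEU, MON, LSK, CMP, GMP, iMK and CFUMK. Its promoter percentiles were 84.7 and 72.9 in NEU, against 79.0 and 67.8 in MON, and these overlapped. In the other libraries with a call they lay between 7.28 and 67.4, both extremes in LSK. Outside the promoter NEU stood apart: 4 of its 9 NEU elements were called in no other type. They form 2 pairs, at 4573 and 6403 bp from the start, downstream of the gene, and at -10275 and -10964 bp, upstream of it. MON replicate 2 had an unmatched peak at the first of them (percentile 59.8). Their percentiles ran from 62.0 to 82.4 in NEU replicate 1 and 48.2 to 71.6 in NEU replicate 2.

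Cr2, the complement receptor (chr1:195136811-195176716, minus strand), had a promoter called in all 20 primary libraries and in none of the 4 libraries of the lines. What differed was the rank of its peak. The best promoter peak lay at percentiles 96.9 and 92.1 in NEU, against 57.6 and 65.1 in MON. LSK, CMP, GMP, MEP and CFUMK libraries, between 86.4 and 98.6, overlapped with NEU, and iMK, ERY and CFUE libraries were lower, between 26.1 and 72.5. The single Cr2 element called in NEU alone lies at -8194 bp from the start (percentiles 77.4 and 60.5). Peak numbers in the window were led by ERY and CFUE, with 13 to 15 peaks, against 8 and 10 in NEU. In ERY and CFUE several of the elements lie beside Cr1l, a complement-regulating neighbour.

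Pou2af1, the octamer coactivator (chr9:51213708-51240080, plus strand), had few peaks in any library. Its promoter element was called in NEU, MON and iMK. Its percentiles were 93.6 and 86.8 in NEU, against 62.1 and 66.0 in MON, and 27.8 and 34.8 in iMK. GMP replicate 2 had an unmatched peak there at 8.90. The 2 NEU values lie above all others. An intronic element 11935 bp past the start was called in NEU alone, with low ranks of 50.7 and 27.1. The window had 6 and 5 peaks in NEU, against 5 and 7 in MON.

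Pax5, the factor that holds B cells to their lineage (chr4:44524757-44710487, minus strand, 7 annotated starts), had 16 NEU elements of 25 in its window, more than any other type: MON had 5 and GMP, the next, 8. Of the 16, 10 were called in NEU alone and 12 were not called in MON. A group of 5 NEU-alone elements lies in intron, between 38788 and 42970 bp past the outermost start. The strongest, chr4:44667403-44667630, had percentiles 85.9 and 81.3 in NEU. MON replicate 1 had a peak there at percentile 23.4 and MON replicate 2 had none, so it was not called in MON. A second group lies about the outermost start, at -2713, -325, 1251 and 4302 bp from it. The element at -325 bp had percentiles 61.4 and 55.9, and no peak in either MON library.

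An element near a second Pax5 promoter, 6030 bp past the outermost start, was called in NEU, MON, LSK, CMP, GMP, MEP, iMK and CFUMK. This element, chr4:44704204-44704710, lay at percentiles 95.6 and 95.0 in NEU, against 70.7 and 78.2 in MON. The MON peaks of this element, and its best NEU peaks, lie more than 500 bp from every annotated start and were not counted as promoter peaks, so the best promoter peak of Pax5 in NEU is the weaker one at -325 bp. The Pax5 window had 29 peaks in each NEU library, against 26 and 10 in MON. MON replicate 1 was thus near NEU and MON replicate 2 far below, and at 4 of the 10 NEU-alone elements MON replicate 1 had a peak and MON replicate 2 had none.

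Ebf1, the factor that first commits cells to the B lineage (chr11:44617317-45008091, plus strand, a body of 391 kb), had 17 NEU elements of 42, against 9 in MON, 18 in GMP and 19 in CMP and CFUMK. The number was therefore no higher in NEU than in these progenitors. Of the 17 NEU elements, 6 were called in no other type, all intronic, and 4 more in NEU and MON only. Those of NEU alone lie 2678, 15883, 46482, 92741, 127500 and 158408 bp past the outermost start. Most were weak: in NEU replicate 2 their percentiles were between 5.38 and 74.2, with 3 under 10. The strongest is chr11:44775615-44775834, with 80.6 and 74.2. No MON peak lay at 5 of the 6, and MON replicate 1 had a peak at percentile 2.76 at the one 15883 bp past the start.

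The 4 Ebf1 elements called in NEU and MON only lie 7467, 147888, 307814 and 333198 bp past the outermost start. The element at 7467 bp had percentiles 87.6 and 80.0 in NEU, against 40.9 and 37.7 in MON. The element at 147888 bp had 87.7 and 79.7 in NEU, against 28.4 and 45.5 in MON. The element at 333198 bp had 94.2 and 91.5 in NEU, against 54.0 and 78.2 in MON. At these 3 both NEU libraries lay above both MON libraries. At 307814 bp the libraries overlapped. The Ebf1 promoter itself was called in all 24 libraries, at 94.4 and 85.4 in NEU, against 66.9 and 69.4 in MON.

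**Figure D2:**
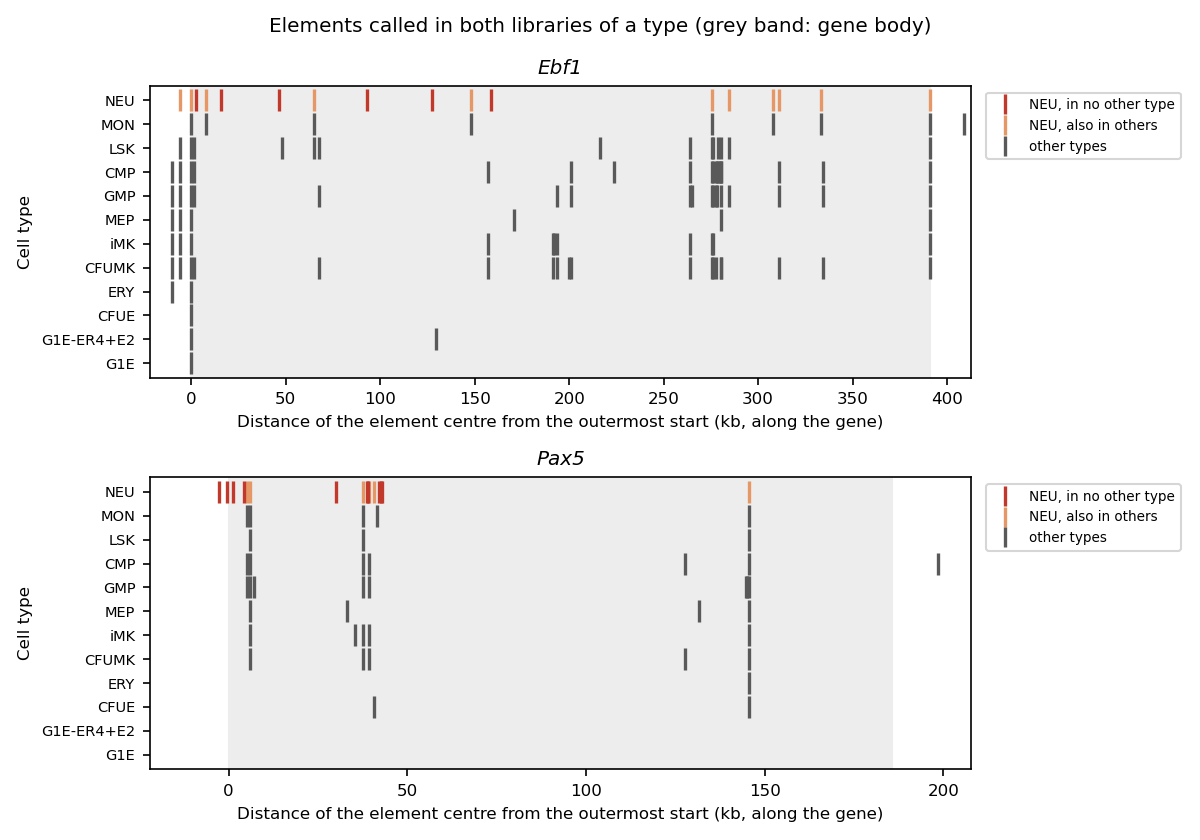
Elements of Ebf1 and Pax5 by distance of their centre from the outermost transcript start (x axis, kb along the gene) and by cell type (rows). Red ticks are NEU elements called in no other type (6 at Ebf1, 10 at Pax5), orange ticks NEU elements also called elsewhere, grey ticks the calls of the other types and the grey band the gene body.

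The Ebf1 window had 51 and 36 peaks in NEU, against 22 and 22 in MON and 51 and 26 in GMP. Per 100000 called peaks this was 46.9 and 42.7 in NEU, against 13.4 and 16.9 in MON and 1.72 to 22.1 in the other types. NEU lists were short, with 108650 and 84341 peaks, against 163770 and 130555 in MON and up to 230877 in GMP, so the same number of peaks weighs more in NEU. For Pax5 the scaled numbers were 26.7 and 34.4 in NEU, against 15.9 and 7.66 in MON and up to 11.1 elsewhere. In the fit across 17047 genes (limma on log2 peaks per 100000), the NEU minus MON difference was 1.53 ± 0.26 for Ebf1, 1.40 ± 0.41 for Pax5, 1.505 ± 0.39 for Cd79b, 1.00 ± 0.32 for Cd79a, 0.93 ± 0.29 for Cr2, 0.52 ± 0.27 for Fcrla and 0.43 ± 0.57 for Pou2af1 (SE, 2 libraries each). The median of all genes was 0.18. Without NEU replicate 2 the difference was 1.598 for Ebf1, 1.22 for Pax5, 1.08 for Cd79b, 0.77 for Cd79a, 0.61 for Cr2, 0.29 for Fcrla and 0.38 for Pou2af1. Of the 7, 5 lie past the threshold that 4.96% of all genes pass as higher in NEU and 2.99% as lower. Since this contrast chose the genes, nothing is read from that count.

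**Figure D3:**
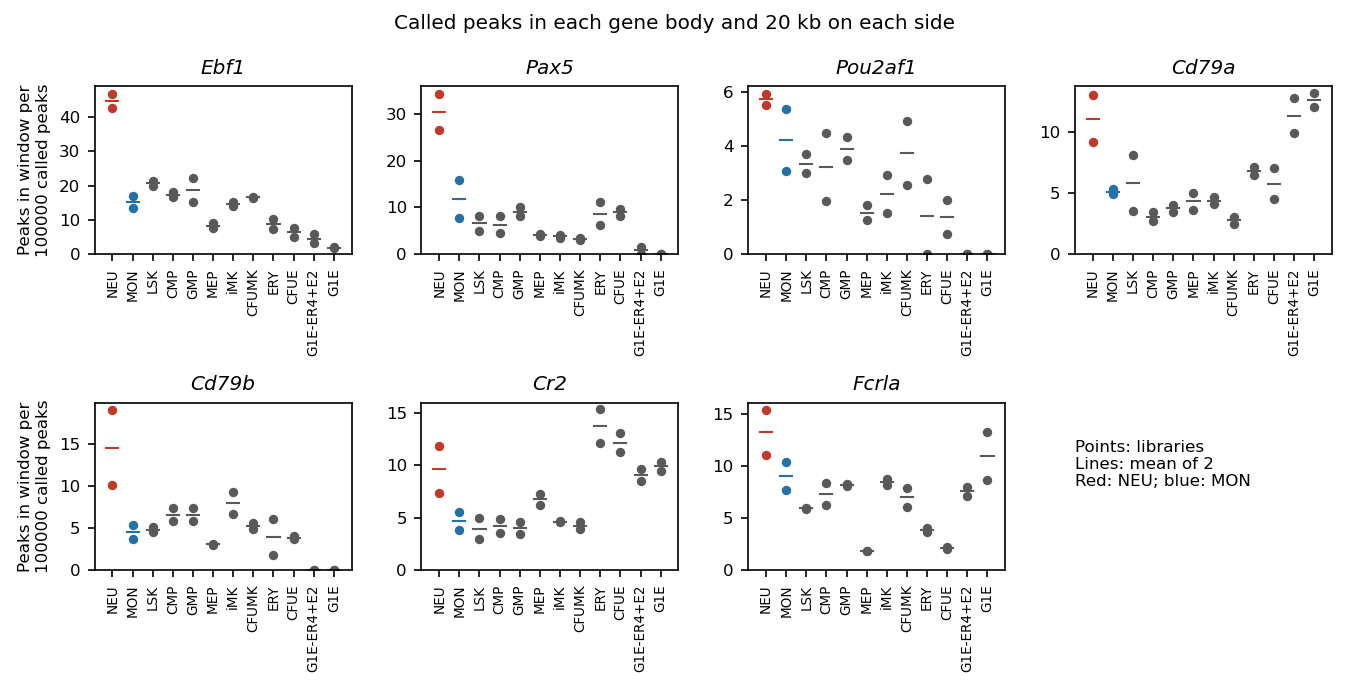
Called peaks in each gene body and 20 kb on each side, per 100000 called peaks of the library, by cell type. Points are libraries (2 a type), lines their means, red NEU and blue MON. Both NEU points are above all others for Ebf1, Pax5, Pou2af1 and Cd79b, while the G1E lines overlap NEU at Cd79a, and at Cr2 both ERY points and CFUE replicate 2 lie above both NEU points.

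Over the 7 windows together, 33 of the 62 NEU elements (53.2%) were not called in MON, against 25.7% of all NEU elements of the genome. The share called in no other type was 38.7%, against 5.43% of all NEU elements. This gap depends on what counts as a call. Without NEU replicate 2, 54 of 106 elements (50.9%) were called in no other type, against 30.6% of all, and without NEU replicate 1, 39 of 82 (47.6%), against 19.8% of all. Where a peak in either library of a type counted, it was 40 of 122 (32.8%), against 26.2% of all. By place, 15 of the 24 NEU-alone elements are intronic, 4 upstream, 3 at promoters and 2 downstream. Without the 8 NEU elements within 500 bp of a start of another gene, 31 of 54 were not called in MON. One NEU library alone, with no need of a match in the other, called more: 82 elements without NEU replicate 1, of which 52 (63.4%) were not in MON, and 106 without NEU replicate 2, of which 74 (69.8%) were not. The same shares over all NEU elements were then 41.4% and 55.1%. With MON replicate 2 left out, 26 of 62 (41.9%) were not called in MON, against 18.8% of all.

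The other 58 genes of 4 B cell lists (receptor and co-receptor, transcription factors, early B cell, mature B cell surface) are set beside these. Of their 422 NEU elements, 17.1% were called in NEU alone and 35.1% were not called in MON. For the T cell list, 6.49% of 77 NEU elements were called in NEU alone, for the NK cell list 8.33% of 24, for the neutrophil list 3.49% of 86 and for the monocyte list 6.25% of 80. The share not called in MON was 36.4% for the T cell list and 37.2% for the neutrophil list, near that of the other B cell genes. These lists were written with earlier results of these data known and their shares are descriptions. In a bulk library, few cells with a fully accessible site and many cells with a rarely accessible one cannot be told apart.

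**Figure D4:**
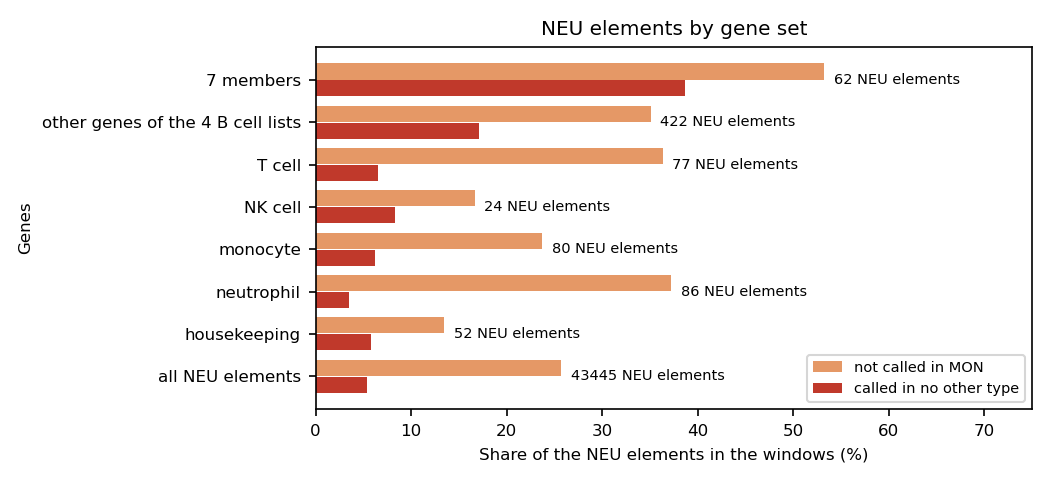
Share of the NEU elements in the windows of a gene set (bars, percent) that was not called in MON (orange) or called in no other type (red). The 7 B cell genes, named members in the plot, have 53.2% and 38.7%, and all NEU elements of the genome 25.7% and 5.43%.

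Beside Cd79a and Fcrla, Fcer2a and Ly6d of the B cell lists also had a promoter called in both NEU libraries and in at most 2 of the other 22, a pattern of 0.0957% of all protein-coding genes. Fcer2a, the low-affinity IgE receptor of B cells, was called in NEU alone (percentiles 88.9 and 86.1). Ly6d, a surface marker of B cell progenitors, was called elsewhere only in MON replicate 1 (74.9 and 66.4 in NEU). Of 8 early B cell genes, 4 had a promoter called in both NEU libraries, near the 51.4% of all protein-coding genes. They numbered 5 and 4 in NEU, against 5 and 6 in CMP and 5 and 5 in GMP. The early B cell genes called in both NEU libraries were Vpreb1, Vpreb3, Il7r and Flt3, and Rag2 was called in 1. Of the other 22 libraries, Vpreb1 was called in 22, Vpreb3 in 5, Il7r and Flt3 in 14 each and Rag2 in 7. Rag1 and Dntt, which cut and extend immunoglobulin gene ends, and Igll1, a surrogate light chain gene, had no promoter peak in either NEU library. Ighm and Igkc had none at their annotated starts, while Ighd was called in 1 NEU library and 0 of the other 22.

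The label of the libraries was checked against marker lists. Of 19 neutrophil genes, 10 had promoters called in both NEU libraries, among them Csf3r, Cxcr2, S100a8, S100a9 and Mmp8. That is near the 51.4% of all protein-coding genes. Both NEU libraries with no MON library was the pattern of 5 of the 19, against 1.11% of all protein-coding genes. The list had 12 and 11 promoters called in NEU, against 6 and 6 in MON, 17 and 16 in GMP and 17 and 17 in iMK, so its promoter calls alone do not mark NEU among these types. The granule genes Ltf, Camp, Ngp, Lcn2 and Elane and the receptor gene Fpr1 had none. Of 58 B cell genes other than the 7, promoters were called at 51 and 48 in NEU, against 44 and 43 in MON. LSK libraries had 42 and 44, CMP 44 and 47 and GMP 45 and 44, so NEU replicate 2 was near CMP replicate 2. Called in both NEU libraries were 47 of the 58, against 51.4% of all protein-coding genes. Of 22 T cell genes they were called at 13 and 10 in NEU, against 9 and 10 in MON, and Cd3e, Cd3g, Cd4 and Cd8a had none in NEU. The NEU libraries were made from unsorted cells, and the part of other blood cells in these calls was not tested.

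At the elements that NEU and MON shared, ranks differed too. Of the 29 elements of the 7 genes called in both, 13 had both NEU libraries above both MON libraries (44.8%), against 12.9% of the 32270 elements of the genome called in both. The mean percentile was over 20 points higher in NEU at 13 of the 29 (44.8%), against 3.63% of all. The median difference, NEU minus MON, was 5.51 points for the 29 and -3.80 points for all. Ebf1 and Pax5 elements and the promoters of Cr2 and Pou2af1 made up most of those over 20 points. At the shared elements of Cd79a and Cd79b the difference was between -6.46 and 5.37 points.

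**Figure D5:**
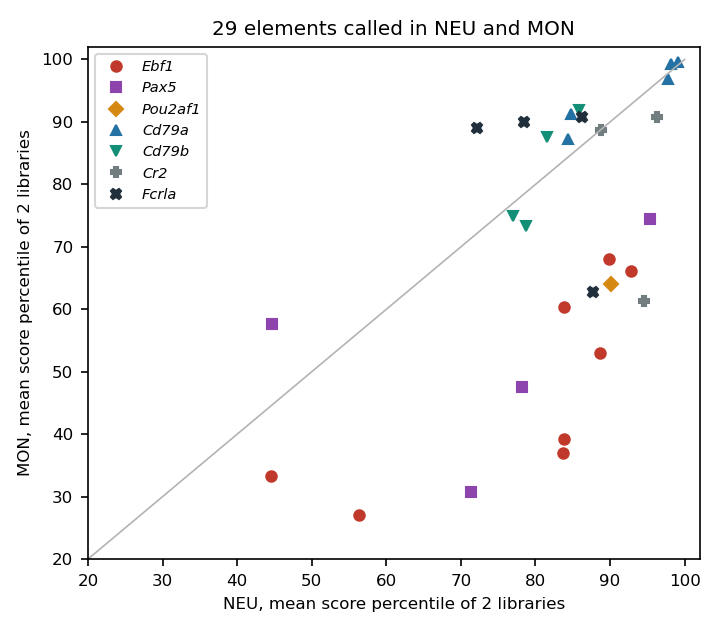
Mean score percentile over the 2 NEU libraries (x axis) and over the 2 MON libraries (y axis) of the 29 elements called in both types, by gene. The line marks equal percentiles. Points below it ranked higher in NEU, and 7 of 8 Ebf1 elements lie more than 20 points below it.

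Across the 24 libraries the 7 genes did not form 1 pattern. Pearson's r of their log2 peak numbers ran between -0.58 and 0.86 over the 21 pairs, with a median of 0.04 (a description over libraries that share types and depth). Ebf1, Pax5, Pou2af1 and Cd79b were alike, with r between 0.76 and 0.86. Cd79a and Cr2 were alike (0.63), and their r with those 4 lay between -0.58 and -0.11. The 8 genes whose profile was most like the mean of the 7 over the 24 libraries, of 17025 compared, were Fcrl1, Pigr, Sardh, Chst3, Cd300a, Dmrt1, Gpr132 and Hsd11b1, with r between 0.88 and 0.91.

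Motif letters were counted in NEU elements. Those of the 7 genes entered through the NEU calls that the choice of genes used, so their counts are descriptions. With 24 elements, a count of 0 for a motif rare over the genome says little. The octamer stood in 2 of the 24 NEU-alone elements of the 7 genes and in 4 of their 62 NEU elements. Over the genome it stood in 8.77% of the 2359 elements called in NEU alone, against 0.90% of the 4757 called in MON alone and 1.07% of all elements. The E-box stood in 8 of the 24 elements, and in 28.9% of all NEU-alone elements, against 17.7% of MON-alone elements and 13.5% of all. EBF letters stood in none of the 24, and in 2.46% of all NEU-alone elements, against 0.57% of MON-alone elements and 0.47% of all. C/EBP letters, those of a family that drives granulocyte genes, stood in none of the 24 and in 1.70% of all NEU-alone elements, against 1.66% of MON-alone elements and 2.90% of all. The relaxed EBF form stood in 3 of the 24 and in 19.6% of all NEU-alone elements, against 11.2% of MON-alone elements and 11.62% of all. PU.1, ETS-IRF and RUNX letters stood in 1 of the 24 each. Over all NEU-alone elements PU.1 had 5.68%, against 3.28% of MON-alone elements and 6.35% of all. ETS-IRF had 3.86%, against 1.35% of MON-alone elements and 3.21% of all, and RUNX had 1.57%, against 0.74% of MON-alone elements and 1.79% of all.

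Whether the 7 genes differed between types other than NEU was tested with limma in 3 contrasts without NEU, with p-values adjusted over 17047 genes. MON minus GMP and LSK minus the mean of CMP, GMP and MEP use values that NEU was set against. They are therefore not independent of the choice of genes. None of the 7 passed in any contrast. Peak numbers in MON minus GMP differed by between -0.49 (Cd79b) and 0.39 (Cd79a) on the log2 scale, with a median of 0.12, against 0.06 over all genes. Of all genes, 2.13% were called higher and 3.98% lower in MON, and 0 of the 7 had an unadjusted p under 0.05, against 22.0% of all. Among the 50000 highest-scoring peaks of each library alone, Fcrla was higher in MON than in GMP by 1.28 (limma, adjusted p = 0.00721), against adjusted p = 0.842 with all peaks. In that setting 2911 genes were called in this contrast, against 1042 with all peaks, so a call there was common.

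In iMK minus CFUMK the 7 genes lay between -0.59 (Pou2af1) and 0.55 (Cd79a), with 0 of the 7 at an unadjusted p under 0.05 (limma), against 7.39% of all genes. Of all genes, 0.00587% were called higher and 0.34% lower. In LSK minus the mean of CMP, GMP and MEP, Ebf1 had the largest difference, 0.56 ± 0.21 (SE, limma adjusted p = 0.586), and was the 1 gene of the 7 with an unadjusted p under 0.05, against 6.75% of all genes. Its window had 21.4 and 19.95 peaks per 100000 in LSK, against 16.6 and 18.1 in CMP, 22.1 and 15.1 in GMP and 9.05 and 7.48 in MEP. Here 0% of genes were called higher and 0.0235% lower. The study's replicates were other groups of mice or other aliquots of the same mice, and which holds for a library is not stated, so the p-values reflect only how much paired libraries of a type differed.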

How the data were processed

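ATAC-seq peak lists of 24 libraries were used. As the submitters' notes and the study's methods have it, the authors trimmed reads, mapped them with Bowtie 0.12.8 (mm10), dropped mitochondrial reads and unplaced contigs, used SAMtools (1.6 in the notes) and bedtools, and called peaks of at most 150 bp with HOMER on each library alone. The score of each peak, and a second score, were computed by the authors and deposited without a unit. The score was used only within a list, as a percentile or to take the 50000 highest, and the step of its values under 10 gave a relative depth, 58.0% and 54.3% of the deepest library in NEU, against 58.2% and 65.2% in MON. In NEU replicate 2 the second score was 0.39 per step of the first at the median, against 0.79 to 1.00 in other primary libraries. No read counts were used, so no counting interval is given.

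The 7 genes, the 14 marker lists and the tests were chosen with earlier results of these data known. Groups follow the labels. Peaks were counted over each protein-coding gene with flanks of 20 kb and fitted in limma 3.58.1 (R 4.3.3, statmod 1.5.0, trend and robust variance) as log2 peaks per 100000 with a prior of 1 peak scaled to library size, for the 17047 genes with a mean of 3 or more peaks, with 12 group means and Benjamini-Hochberg adjustment at 0.05 (two-sided). The script was first tested on simulated data. Named genes are the 7, the 8 genes of most similar profile, and neighbours whose promoters hold a counted peak. Genes of the other B cell lists with a promoter called in both NEU libraries and at most 2 of 22 others are also named. Marker genes named to check the label, and early B cell and immunoglobulin genes named with or without a peak, were chosen after their values were seen. One item that the rule names is not reported here. No peak ran past a chromosome end of GRCm38.p6, so its sequence was used. Other steps used Python 3.11.15 with numpy 2.4.6 and pandas 2.3.3, and matplotlib 3.10.9 drew the plots.

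Alternatives were a peak prior of 0.5, no filter, flanks of 5 kb, promoters within 250 bp or 1 kb, an overlap of 75 bp, a peak in either library, the 50000 highest peaks, quantile normalization, no cell lines, no elements at starts of other genes, and each library left out in turn. The relaxed EBF letters, the ranking by the second score and a fit with the run of library numbers as a block were chosen after seeing the data.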

Additional observations from a re-analysis of the deposited data

How the results depend on the processing

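The 7 promoters were called in both NEU libraries in each setting tried but 1 (6 within 250 bp). The count of NEU elements, 62, became 122 where a peak in either library of a type counted, of which 73 were not in MON in place of 33, and it lay between 62 and 106 with 1 NEU or MON library left out (26 to 74 not in MON). Other settings, among them the 50000 highest peaks by the second score, added after seeing the data, kept both counts within 1.5 times.

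Genes called in the fits moved more. For LSK minus the mean of CMP, GMP and MEP, 4 genes were called, against 2 with a prior of 0.5, 39 with no filter, 658 with the 50000 highest peaks, 231 after quantile normalization, 2 without the cell lines, 0 with 5 kb flanks and 0 to 42 with 1 library left out. For iMK minus CFUMK the 59 became 134 with no filter, 1533 with the 50000 highest peaks, 495 after quantile normalization and 0 to 24 with 1 library left out. For MON minus GMP the 1042 became 1970, 2911 and 2992 under the same settings and 144 to 471 with 1 library left out. For NEU minus MON the 1355 became 867 with 5 kb flanks and 227 (without NEU replicate 2) to 3966 (without NEU replicate 1). The causes were not tested. Of the 7 genes, Fcrla turned direction in NEU minus MON with the 50000 highest peaks, where the log2 difference was -0.069, against 0.52 with all peaks. Pax5, Pou2af1 and Cd79b had a mean under 3 peaks among the 50000 highest and were not fitted in any contrast in that setting. Other NEU minus MON differences moved by over 1.5 times: with the 50000 highest peaks Ebf1 was 3.04, Cd79a 0.44 and Cr2 0.54, with 5 kb flanks Cd79a was 0.66 and Cr2 0.45, without MON replicate 2 Pax5 was 0.90, Pou2af1 0.78 and Fcrla 0.31, after quantile normalization Fcrla was 0.28, without MON replicate 1 Pou2af1 was 0.083, and without NEU replicate 2 Cr2 was 0.61 and Fcrla 0.29. In the other contrasts 1 call changed, that of Fcrla given above.

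The library numbers in the labels form 2 runs over the same 7 marrow types, and no source says what a run shares. Libraries of a run deviated together from their type means weakly and in some types only (r over 0.1 for 6 of 21 pairs of types). Those pairs are all among CMP, GMP, MEP, CFUE and CFUMK, where r lay between 0.047 and 0.255. In pairs with ERY or iMK it lay between -0.18 and 0.052, with -0.07 for iMK with CFUMK. With the run as a replicate block, added after seeing the data, 51 genes were called in iMK minus CFUMK, 968 in MON minus GMP, 3 in LSK minus the mean of CMP, GMP and MEP and 1217 in NEU minus MON, and no call on the 7 genes changed. Having 2 libraries a type, and lists without read counts, limit what a missing peak shows: a site without a call was not detected by the authors' caller at that library's depth.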

Other observations

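Of the 21 protein-coding genes with a promoter called in both NEU libraries and in at most 2 of the other 22, Cd79a, Fcrla, Fcer2a and Ly6d are in the B cell lists. Looked up after their values were seen, others include Ltb, a lymphotoxin chain made by lymphocytes, and Acod1, an enzyme of activated myeloid cells that makes itaconate. The neutrophil list gave none: 10 of 19 neutrophil genes had promoters called in both NEU libraries, and each of the 10 was called in 7 or more of the other 22 libraries.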
